A study of Mus musculus with 6 samples.

Results

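Hspa5, Hsp90b1, Xbp1, Dnajb9, Pdia4, Pdia6, Sdf2l1, Herpud1, Calr and Creld2 are genes of the unfolded protein response (UPR), most of them chaperones and folding enzymes of the endoplasmic reticulum (ER). They were picked by gene symbol. All 10 were found among the 54146 genes of the deposited table, each as a single row. RNAseq was carried out on D2A1, a mouse mammary tumor cell line grown as spheroids in Matrigel in DMEM with 10% FBS. The treated cultures received recombinant SLURP1 (rSLURP1), a secreted Ly6/uPAR-related protein, and the control cultures received recombinant GST (rGST), the glutathione S-transferase often used as a protein tag. The labels give 50 nM for each protein, and the study's methods give harvest on day 5. Each treatment had 3 libraries, and the labels do not say whether they came from separate cultures, so p-values measure the spread between these libraries, which may be technical.

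The UPR is the response of a cell to misfolded protein in the ER. IRE1 (Ern1), a kinase and nuclease of the ER membrane, starts the cytosolic splicing of Xbp1 mRNA and so yields an active transcription factor. ATF6 is cleaved in the Golgi to release another factor, and PERK (Eif2ak3) phosphorylates eIF2 alpha, which lowers translation in general and raises that of ATF4. XBP1 and ATF6 induce chaperones, oxidoreductases and degradation factors of the ER. ATF4 is also reached through other eIF2 alpha kinases, such as GCN2 upon amino acid shortage, and induces genes of amino acid synthesis and transport. The comparison asks whether, and how far, the transcripts of the chaperones moved with rSLURP1.

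Values are TPM, a measure of transcript abundance corrected for transcript length and scaled so that each library sums to the same total. It keeps no read depth, so counting error is unknown and precision rests on the replicates. Genes reaching 1 TPM in 3 or more libraries were tested, 12301 in number, with limma on log2(TPM + 1) and Benjamini-Hochberg adjustment over all of them. A gene was called at an adjusted p of 0.05 or less. All 10 ER genes passed, with no library below 32.9 TPM, so the filter selected none of them. The median log2 fold change of all tested genes was -0.33 as deposited. Scaling each library by the median ratio of its genes (size factors of 1.13 to 1.14 for rGST and 0.873 to 0.910 for rSLURP1) moved it to -0.0012. Which scaling is nearer to RNA per cell cannot be told from TPM, so median-ratio scaled values stand beside those as deposited. Of the epithelial markers, Krt18 was at 191.1 to 199.4 TPM in all libraries, while Epcam, Krt5 and Krt14 were listed at 0 throughout and Cdh1 did not exceed 0.07. The 8 epithelial markers summed to 194.1 to 201.4 TPM with rGST and 197.8 to 200.7 with rSLURP1, nearly all of it Krt18. Krt8 was at 1.4 to 1.66 TPM with rGST and lower, at 0.51 to 0.81, with rSLURP1. The 8 mesenchymal or fibroblast markers summed to 2252 to 2479 TPM with rGST and 725.4 to 778.8 with rSLURP1. Vim was the largest part of both sums (1184 to 1340 and 640.3 to 698.5). Dcn was at 519.7 to 635.6 and 5.15 to 5.88 TPM, and Lum at 165.1 to 194.6 and 0.58 to 1.09. Pdgfra was at 191.2 to 204.9 and 51.1 to 57.6, Pdgfrb at 103.3 to 113.2 and 17.9 to 21.0, and Col1a1 at 7.48 to 9.66 and 0.26 to 0.42. None was at 0 in every library, but Cdh2 did not exceed 0.05 and Col1a2 did not exceed 0.49. The 7 immune markers summed to 3.58 to 4.16 and 8.12 to 10.6 TPM (Itgam, Cd3e and Nkg7 at 0 throughout). Nearly all of this was Cd68 (3.57 to 4.07 and 7.75 to 10.6), and Ptprc did not exceed 0.01. The 3 adipocyte markers summed to 4.76 to 8.28 and 37.1 to 40.7. Nearly all of that was Fabp4 (4.53 to 7.53 and 35.8 to 39.0), and Adipoq did not exceed 0.15 with rGST and was at 0 with rSLURP1. The 4 endothelial markers summed to at most 0.31. The part of these marker changes in the results was not tested. In bulk RNA, fewer cells of a type and less RNA per cell cannot be told apart.

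Promoters of UPR genes are known for the ER stress response element (ERSE), to which ATF6 binds together with NF-Y, and the matches found are shown because they mark the genes whose promoters carry that letter pattern. The 250 bases before the RefSeq start (GRCm38.p6, all 10 genes matched) were searched on both strands for ERSE (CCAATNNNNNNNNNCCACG), ERSE-II (ATTGGNCCACG), the core of the UPR element bound by XBP1 (TGACGTGG) and the core of the C/EBP-ATF element bound by ATF4 (TGATGNAA). The last 5 letters of ERSE and ERSE-II can overlap the reverse of the UPR element. Capitals mark the fixed letters of the match, with 5 bases on each side, and each sequence reads 5′ to 3′ on the strand of its gene.
Hspa5 ERSE (chr2:34772020-34772048, plus strand): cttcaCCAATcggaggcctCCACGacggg
Hsp90b1 distal ERSE (chr10:86705633-86705661, minus strand): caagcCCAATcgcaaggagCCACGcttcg
Hsp90b1 proximal ERSE, reverse (chr10:86705528-86705556, minus strand): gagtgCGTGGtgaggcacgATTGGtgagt
Calr ERSE, reverse (chr8:84847070-84847098, minus strand): caacgCGTGGtcgaccctcATTGGcccat
Pdia6 ERSE (chr12:17266486-17266514, plus strand): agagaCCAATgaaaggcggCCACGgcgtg
Creld2 ERSE, reverse (chr15:88819515-88819543, plus strand): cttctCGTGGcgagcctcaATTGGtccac
Herpud1 ERSE-II (chr8:94386372-94386392, plus strand): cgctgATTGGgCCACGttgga
Herpud1 C/EBP-ATF core, reverse (chr8:94386312-94386329, plus strand): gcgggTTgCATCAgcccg
ERSE was found before 5 of the 10 genes, against 0.13% of the 27025 genes with a promoter window. ERSE-II was found before 1 of them against 0.037% of genes, and the C/EBP-ATF core before 1 against 3.91%. The UPR element core was found before none of the 10 and before 0.603% of genes. ERSE is known from promoters of UPR genes, so these counts describe the 10 and are not a test. Xbp1, Dnajb9, Pdia4 and Sdf2l1 had no match to any of the 4 patterns, which says only that these letters are not in the window searched. GENCODE M21 places the start of Hspa5 further upstream and counts its ERSE as untranslated region, and it places the start of Dnajb9 upstream of the window searched.

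The 10 genes differed widely in level. The chaperone genes Hspa5, Calr and Hsp90b1 were the highest with rGST, with Pdia6 next, then Pdia4, Xbp1, Herpud1, Creld2, Sdf2l1 and Dnajb9. The mean TPM of Hspa5 was 33.5 times that of Dnajb9 with rGST and 25.9 times with rSLURP1. Neighbours in this order did not overlap between libraries in either treatment. With rSLURP1, Pdia6 stood above Hsp90b1 and Creld2 above Herpud1. In every other position the order was as with rGST. Summed over the 10 genes, TPM was 3524, 3624 and 3656 in rGST replicates 1, 2 and 3 and 3836, 4055 and 3827 in rSLURP1 replicates 1, 2 and 3, which is 0.352% to 0.366% and 0.383% to 0.405% of all TPM. The lowest of the rSLURP1 sums was above the highest of the rGST sums. Hspa5, Calr, Hsp90b1 and Pdia6 together held 85.3% of it with rGST and 84.6% with rSLURP1. The coefficient of variation within a treatment ran from 0.966% to 6.21%, and rSLURP1 replicate 2 was the highest rSLURP1 library for 8 of the 10 genes. That library also had the largest size factor of the rSLURP1 libraries, 0.910 against 0.873 and 0.877, which is taken over all genes.

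**Figure D1:**
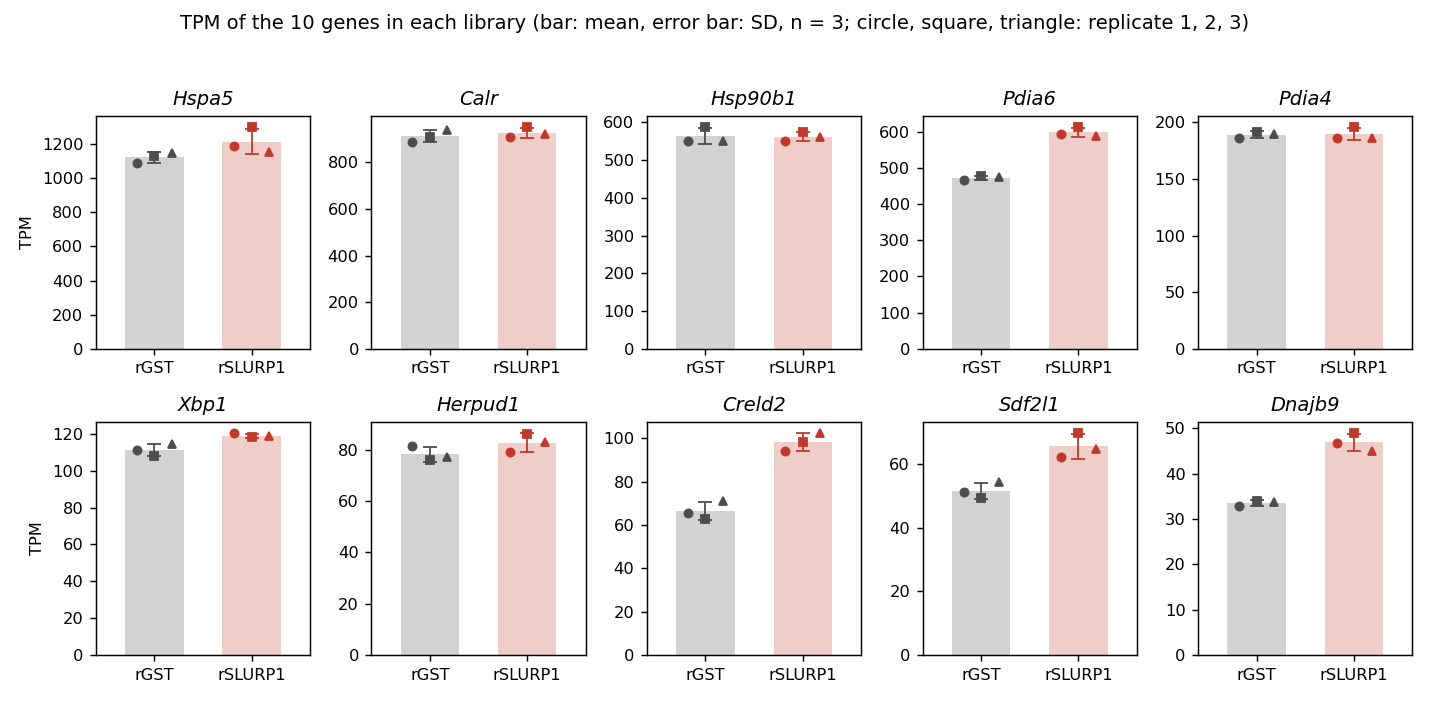
TPM (linear axis from 0) of each gene in the 3 rGST and 3 rSLURP1 libraries, with bars for the mean, error bars for the SD and symbols for replicates 1 to 3. Creld2, Dnajb9, Pdia6 and Sdf2l1 stood clearly higher in all rSLURP1 libraries, whereas Hsp90b1, Pdia4, Calr and Herpud1 overlapped between treatments.

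Of the 10 genes, 4 rose with rSLURP1 as deposited (Creld2, Dnajb9, Pdia6 and Sdf2l1), where 8.66% of all tested genes were called higher. None was called lower, where 58.5% of all tested genes were. In the limma fits with other settings none was called lower either, and none of the 10 was lower even at an unadjusted p of 0.05 as deposited. In 6 of the 10 genes the treatments did not overlap, all with the higher values in rSLURP1 libraries, and 9.75% of all tested genes showed this. None separated in the other direction, which 61.7% of tested genes did, and none rose 2-fold or more, which 1.15% did. After median-ratio scaling all 10 were called higher, where 26.0% of all tested genes were, and all 10 had separate groups with rSLURP1 higher, as had 30.2% of tested genes, while 30.0% separated the other way. The median log2 fold change of the 10 was 0.11 as deposited, 0.43 above the all-gene median, and 0.46 after median-ratio scaling. Each of the 10 lay between the 80.1 and the 95.8 percentile of fold changes over all tested genes. Their longest transcripts were 1108 to 3672 bases, with a median of 3152 over tested genes, and after a correction for length and GC content all 10 were called higher at log2 fold changes of 0.36 to 0.80, where 27.0% of genes were and the median of all genes was 0.029.

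**Figure D2:**
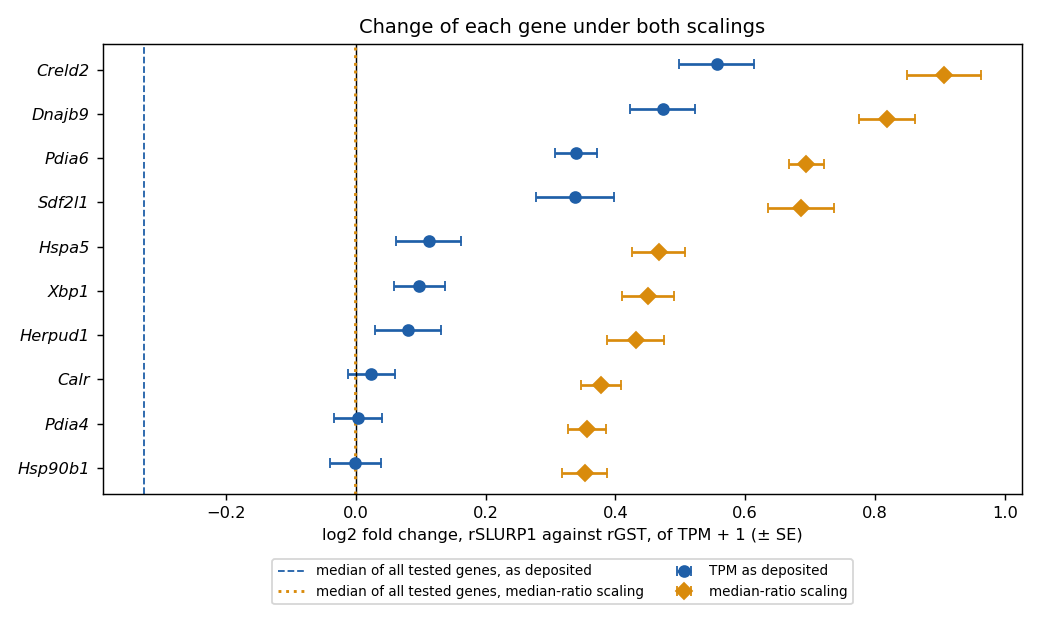
Log2 fold change of TPM + 1 (rSLURP1 against rGST, ± SE) of each gene with TPM as deposited (circles) and after median-ratio scaling (diamonds), with vertical lines at the median of all tested genes on each scale. As deposited the genes ran from -0.00089 (Hsp90b1) to 0.56 (Creld2), and all 10 lay to the right of the median of -0.33.

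Hspa5 (ENSMUSG00000026864.13; GRCm38 chr2:34771970-34777547, plus strand) encodes BiP, the HSP70 chaperone of the ER lumen and the usual readout of ATF6 activity. Its TPM was 1089, 1129 and 1151 in rGST replicates 1, 2 and 3 and 1192, 1300 and 1154 in rSLURP1 replicates 1, 2 and 3. The groups did not overlap, but rSLURP1 replicate 3 lay only just above rGST replicate 3. The means were 1123 ± 31.3 and 1215 ± 75.4 TPM (SD, n = 3 each), 1.08-fold, with a log2 fold change of 0.11 (SE 0.050, adjusted p = 0.0816 in limma). It passed the threshold without rSLURP1 replicate 3 (0.15, adjusted p = 0.0416 in limma), without mitochondrially encoded genes (0.14, adjusted p = 0.0241) and with the length and GC correction (0.50, adjusted p = 6.32e-05). With median-ratio scaling the log2 fold change was 0.47 (adjusted p = 7.81e-05 in limma), and with quantile normalization -0.035 (adjusted p = 0.571 in limma).

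Hsp90b1 (ENSMUSG00000020048.13; chr10:86690209-86705509, minus strand) encodes GRP94, the HSP90 chaperone of the ER. It had 550.2, 586.9 and 550.0 TPM with rGST and 551.0, 574.6 and 559.9 with rSLURP1, in the order of the replicates. The groups overlapped almost fully, and the log2 fold change was -0.00089 (SE 0.039, adjusted p = 0.985 in limma). After median-ratio scaling it was 0.35 (SE 0.035, adjusted p = 1.52e-04 in limma). Hsp90b1 carried ERSE matches at 2 places and showed the smallest change of the 10 genes as deposited.

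Dnajb9 (ENSMUSG00000014905.4; chr12:44205559-44210326, minus strand) encodes ERdj4, a J-domain partner of BiP that is best known as a target of spliced XBP1. Its TPM was 32.9, 33.9 and 33.8 with rGST and 46.8, 48.9 and 45.1 with rSLURP1. The lowest rSLURP1 library stood well above the highest rGST library. The log2 fold change was 0.47 (SE 0.051, adjusted p = 1.35e-04 in limma; 0.82 after median-ratio scaling), from means of 33.5 ± 0.575 and 46.9 ± 1.91 TPM (SD, n = 3 each), 1.40-fold.

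Sdf2l1 (ENSMUSG00000022769.9; chr16:17130138-17132383, minus strand) encodes an ER-resident protein that works with J-domain co-chaperones of BiP. It was at 51.3, 49.4 and 54.4 TPM with rGST and at 62.3, 69.8 and 64.9 with rSLURP1. All rSLURP1 libraries were higher, and the log2 fold change was 0.34 (SE 0.060, adjusted p = 0.00169 in limma), 1.27-fold by the means. At 1108 bases it has the shortest transcript of the 10 genes, and the length and GC correction gave 0.53 where median-ratio scaling gave 0.69.

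The disulfide isomerases are described side by side. Pdia6 (ENSMUSG00000020571.12; chr12:17266545-17284770, plus strand), also called P5, which acts with BiP, was at 467.2, 477.0 and 474.5 TPM with rGST and at 594.7, 612.7 and 589.4 with rSLURP1. Its groups were far apart, with a log2 fold change of 0.34 (SE 0.032, adjusted p = 7.76e-05 in limma). Pdia4 (ENSMUSG00000025823.9; chr6:47796141-47813430, minus strand), also called ERp72, was at 186.0, 191.8 and 189.4 TPM with rGST and at 186.5, 195.7 and 186.4 with rSLURP1. Its groups overlapped, with a log2 fold change of 0.0034 (SE 0.037, adjusted p = 0.941 in limma). With median-ratio scaling the log2 fold changes were 0.69 for Pdia6 and 0.36 for Pdia4, both called higher.

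Calr (ENSMUSG00000003814.8; chr8:84841850-84846934, minus strand) encodes calreticulin, a calcium-binding lectin chaperone of glycoproteins. It had 888.4, 910.3 and 940.1 TPM with rGST and 909.7, 951.3 and 923.1 with rSLURP1. The groups overlapped and the log2 fold change was 0.024 (SE 0.036, adjusted p = 0.583 in limma), with 0.38 after median-ratio scaling and -0.048 with quantile normalization. Creld2 (ENSMUSG00000023272.4; chr15:88819646-88826683, plus strand) encodes an ER stress-inducible protein with isomerase activity. It was at 65.7, 62.8 and 70.9 TPM with rGST and at 94.0, 98.1 and 102.2 with rSLURP1. This was the highest fold change of the 10, 1.48-fold by the means and 0.56 on the log2 scale (SE 0.057, adjusted p = 1.14e-04 in limma), or 0.91 after median-ratio scaling, and the groups were far apart.

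Herpud1 (ENSMUSG00000031770.16; chr8:94386438-94395377, plus strand) encodes HERP, a membrane protein of ER-associated degradation. It was at 81.5, 75.8 and 77.0 TPM with rGST and at 78.9, 86.1 and 83.1 with rSLURP1. rSLURP1 replicate 1 fell within the rGST range, and the log2 fold change was 0.081 (SE 0.051, adjusted p = 0.190 in limma), or 0.43 after median-ratio scaling. Xbp1 (ENSMUSG00000020484.18; chr11:5520659-5525893, plus strand), the transcription factor itself and a target of ATF6, was at 111.2, 107.9 and 114.5 TPM with rGST and at 120.3, 118.1 and 118.7 with rSLURP1. The groups did not overlap, but the gap was small, with a log2 fold change of 0.098 (SE 0.039, adjusted p = 0.0556 in limma). Xbp1 passed the threshold in 8 of 17 alternatives. These were median-ratio scaling (0.45, adjusted p = 9.37e-05 in limma) and the length and GC correction (0.43), each with or without the replicate number as a block, quantile normalization (0.34), no filter on low genes (0.098, adjusted p = 0.0477), removal of mitochondrially encoded genes (0.12, adjusted p = 0.0206) and omission of rGST replicate 3 (0.12, adjusted p = 0.0480). A gene total cannot separate spliced from unspliced Xbp1, so the active form was not measured here.

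Ratios within a library do not depend on how libraries are scaled, and each gene was therefore set against Hspa5. Creld2 was at 6.03%, 5.57% and 6.15% of Hspa5 TPM in rGST replicates 1, 2 and 3 and at 7.89%, 7.55% and 8.86% in the rSLURP1 libraries. Dnajb9 was at 2.94% to 3.02% of Hspa5 with rGST and at 3.76% to 3.93% with rSLURP1. Pdia6 was at 41.2% to 42.9% and 47.1% to 51.1%, and Sdf2l1 at 4.38% to 4.73% and 5.23% to 5.63%. These 4 genes were higher relative to Hspa5 in every rSLURP1 library, by 0.45 (SE 0.082), 0.37 (SE 0.023), 0.23 (SE 0.038) and 0.23 (SE 0.048) on the log2 scale, respectively. Each had an exact two-sided permutation p of 0.1, the smallest that 3 libraries against 3 can give. Pdia4 and Calr were lower relative to Hspa5 in every rSLURP1 library, at differences of -0.11 (SE 0.034) and -0.089 (SE 0.037) and the same exact p of 0.1. Hsp90b1 differed by -0.11 (SE 0.053, exact permutation p = 0.2), Herpud1 by -0.030 (SE 0.067, exact permutation p = 0.5) and Xbp1 by -0.013 (SE 0.062, exact permutation p = 0.9), with overlapping libraries. No scaling of whole libraries alters these ratios, but the length and GC correction differs between genes and does alter them. With it the log2 fold change was 0.50 for Hspa5, 0.80 for Creld2, 0.79 for Dnajb9, 0.69 for Pdia6 and 0.53 for Sdf2l1. It was 0.43 for Xbp1, 0.40 for Herpud1, 0.37 for Calr and 0.36 for Hsp90b1 and Pdia4. Sdf2l1 then stood only just above Hspa5. Quantile normalization is not a scaling of whole libraries either, and it altered the ratios too. Under it Hspa5 had a log2 fold change of -0.035. Pdia4 (0.22), Hsp90b1 (0.064), Xbp1 (0.34) and Herpud1 (0.36) were then above Hspa5 and no longer below it. Calr (-0.048) stayed below Hspa5, and Creld2 (0.84) and Dnajb9 (0.81) stayed above. The lower ratio of Pdia4 to Hspa5 thus did not hold under every normalization. These 9 ratios share Hspa5 and are not independent of each other, and the exact permutation test cannot reach 0.05 for any of them.

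**Figure D3:**
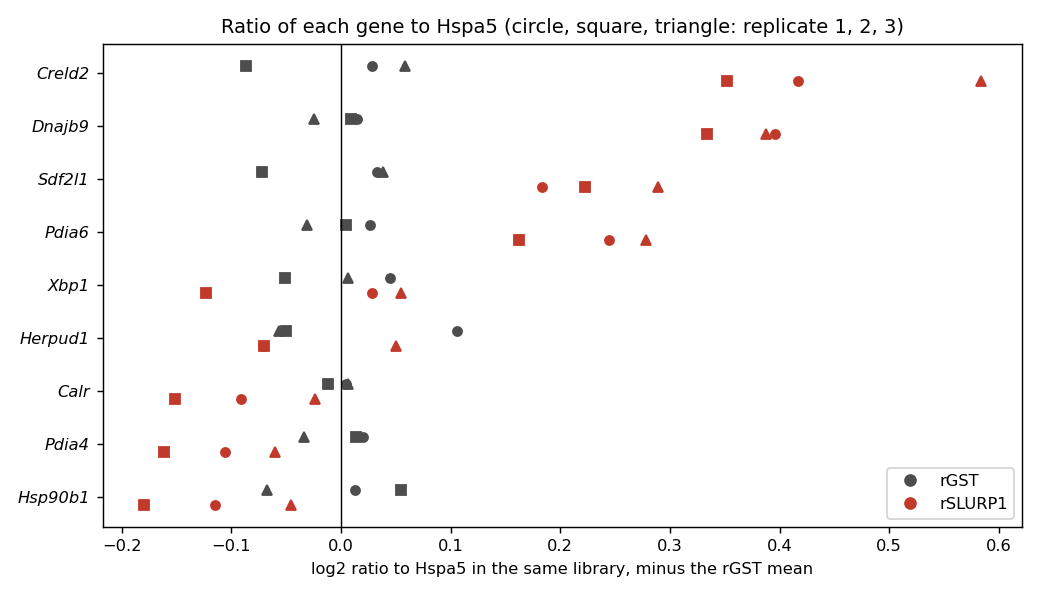
Log2 ratio of each gene to Hspa5 in the same library, minus the rGST mean, with 1 point per library. The rSLURP1 points of Creld2, Dnajb9, Sdf2l1 and Pdia6 lie to the right of all rGST points, and those of Calr and Pdia4 lie to the left.

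Other genes of ER folding gave mixed results. Over all tested genes, 8.66% were called higher and 58.5% lower as deposited, and 26.0% and 25.2% after median-ratio scaling. Of 25 tested folding genes outside the 10, 9 rose and 5 fell as deposited (median log2 fold change 0.020), and 21 were higher and 1 lower after median-ratio scaling (median 0.37). Manf, which encodes a secreted ER stress factor that binds BiP, rose from 223.2 ± 19.4 to 392.3 ± 6.71 TPM (SD, n = 3 each; log2 fold change 0.81, adjusted p = 2.83e-05 in limma, and 1.17 after median-ratio scaling). Hyou1, the nucleotide exchange factor and large HSP70 of the ER, rose from 151.2 ± 3.64 to 186.9 ± 9.62 TPM (log2 fold change 0.30, adjusted p = 8.87e-04 in limma, and 0.66 after scaling). The lectin chaperone gene Canx rose by a log2 fold change of 0.22 (adjusted p = 0.00164 in limma), and by 0.57 after scaling. Dnajc3, the p58IPK co-chaperone gene, rose by 0.17 (adjusted p = 0.0214 in limma), a call lost without rGST replicate 1 (adjusted p = 0.0597), rGST replicate 2 (0.0628) or rSLURP1 replicate 2 (0.0565), and had 0.52 after scaling. Pdia3 had a log2 fold change of 0.0079 (adjusted p = 0.834 in limma) as deposited and 0.36 after scaling. P4hb, the classic disulfide isomerase gene, fell by 0.16 as deposited (adjusted p = 0.00258 in limma) but was higher, at 0.19, after median-ratio scaling. Sil1, another exchange factor of BiP, was lower on both scales, at -0.52 and -0.17, although the scaled call was lost with the replicate number as a block (adjusted p = 0.0511 in limma).

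Genes of ER-associated degradation and of traffic through the ER gave mixed counts. Of all tested genes, 8.66% rose and 58.5% fell as deposited, and 26.0% were higher after median-ratio scaling. In none of these lists was the share that fell as deposited above that of all tested genes. Among 22 degradation genes, 4 rose and 11 fell as deposited (median -0.18), against 12 higher and 4 lower after median-ratio scaling, where 25.2% of all tested genes were lower (median 0.17). Vimp, the selenoprotein S gene, rose by 0.64 (adjusted p = 9.14e-05 in limma), and Syvn1, the HRD1 ubiquitin ligase gene, by 0.24 (adjusted p = 0.00825 in limma), with 0.98 and 0.59 after median-ratio scaling. Its partner Sel1l had -0.036 (adjusted p = 0.547 in limma) and the mannosidase-like gene Edem1 0.024 (adjusted p = 0.782 in limma), and after median-ratio scaling these were higher, at 0.31 and 0.36. Ngly1, the cytosolic N-glycanase gene, was lower on both scales (-0.63 and -0.30). Among 23 genes of translocation and signal peptide processing, 12 rose and 7 fell as deposited (median 0.18), with 18 higher and 1 lower after median-ratio scaling (median 0.53). Sec61g, a subunit of the Sec61 channel, had the largest increase (0.67, adjusted p = 9.23e-06 in limma) and Srp14, of the signal recognition particle, the largest decrease (-0.71, adjusted p = 2.65e-05 in limma), with 1.03 and -0.35 after scaling. Among 21 genes of COPII transport and retrieval, 4 rose and 12 fell as deposited (median -0.16), with 13 higher and 1 lower after scaling (median 0.19), from 0.44 for the KDEL receptor gene Kdelr3 to -0.60 for the coat gene Sec24b. After scaling these had 0.77 and -0.25, and with the length and GC correction the call of Sec24b was lost (-0.12, adjusted p = 0.104 in limma).

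The sensors Ern1, Atf6 and Eif2ak3 stood at lower TPM than any of the 10 ER genes. Ern1 was at 13.6, 12.7 and 13.7 TPM with rGST and at 18.5, 20.2 and 16.8 with rSLURP1, and rose (log2 fold change 0.44, SE 0.082, adjusted p = 0.00213 in limma; 0.77 after scaling). Atf6 was at 19.4, 19.9 and 19.0 TPM with rGST and at 26.4, 27.2 and 22.1 with rSLURP1, and rose as well (0.36, SE 0.085, adjusted p = 0.00699 in limma; 0.69 after scaling). Both were separated by treatment in all libraries. Eif2ak3 was at 12.4, 13.8 and 13.2 TPM with rGST and at 11.4, 11.5 and 10.7 with rSLURP1. It fell as deposited (-0.21, adjusted p = 0.0366 in limma), a call lost without rGST replicate 2 (adjusted p = 0.118), rGST replicate 3 (0.0810) or any rSLURP1 replicate (0.0541 to 0.105). The call was also lost with no filter (0.0598), without mitochondrially encoded genes (0.0522) and with the replicate number as a block (0.0645). Eif2ak3 had 0.12 after median-ratio scaling (adjusted p = 0.204 in limma) and was called higher with the length and GC correction (0.25, adjusted p = 0.0226 in limma; 0.0572 with the block). Mbtps1, which encodes the site-1 protease that cleaves ATF6, was lower on both scales (-0.83 and -0.48). Of the 12 tested sensors, proteases and transcription factors, 3 rose and 8 fell as deposited (median -0.28), where 8.66% and 58.5% of all tested genes did. After median-ratio scaling 4 were higher and 2 lower (median 0.057), where 26.0% and 25.2% of all tested genes were.

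Atf4 and its targets Ddit3, Asns, Trib3 and Chac1 had larger fold changes than any of the 10 ER genes. Atf4 was at 110.9, 114.7 and 122.0 TPM with rGST and at 370.2, 395.0 and 347.9 with rSLURP1 (log2 fold change 1.67, SE 0.058, adjusted p = 8.22e-07 in limma, and 2.02 after scaling). Ddit3, the CHOP gene, was at 27.8, 26.2 and 30.1 TPM with rGST and at 69.3, 74.3 and 64.3 with rSLURP1 (1.27, SE 0.073, adjusted p = 7.72e-06 in limma, and 1.62 after scaling). Asns, asparagine synthetase, was at 30.5, 29.6 and 32.7 TPM with rGST and at 153.6, 148.8 and 139.8 with rSLURP1 (2.22, SE 0.056, adjusted p = 2.34e-07 in limma, and 2.57 after scaling). None of these 3 genes overlapped between treatments. Trib3, a pseudokinase gene induced by ATF4 and CHOP, rose by 2.76, and Chac1, a glutathione-degrading enzyme gene, by 2.25, with 3.10 and 2.58 after scaling.
As a list, 10 of 16 genes of PERK and ATF4 signaling rose and 3 fell as deposited (median 0.56), where 8.66% and 58.5% of all tested genes did. After median-ratio scaling 12 were higher and 3 lower (median 0.91), where 26.0% and 25.2% of all tested genes were. Nupr1, a stress-induced chromatin protein gene, had the largest decrease (-1.16, adjusted p = 6.18e-06 in limma, and -0.81 after scaling). Ppp1r15a, the GADD34 phosphatase subunit gene, rose by 0.48 (adjusted p = 0.0162 in limma), a call lost without rGST replicate 1 (0.41, adjusted p = 0.0542) and with no filter (adjusted p = 0.0581), and had 0.83 after scaling. Of 28 amino acid response genes, 26 rose and 0 fell as deposited (median 0.75; 0 were lower in the median-ratio scaled limma fit also, where 28 were higher with a median of 1.10). Cth, cystathionine gamma-lyase, rose most, from 3.70 ± 0.681 to 36.4 ± 4.42 TPM (SD, n = 3 each), 2.99 on the log2 scale and 3.30 after scaling. The ER chaperones, with a median of 0.11, stood between the ATF4 lists and the median of all genes at -0.33. Genes of ER translocation (median 0.18), other ER folding genes (0.020) and ER-associated degradation genes (-0.18) lay in the same interval. Collagen folding factors of the ER lay below it (-0.46). The difference between the lists was described by these medians and not tested.

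**Figure D4:**
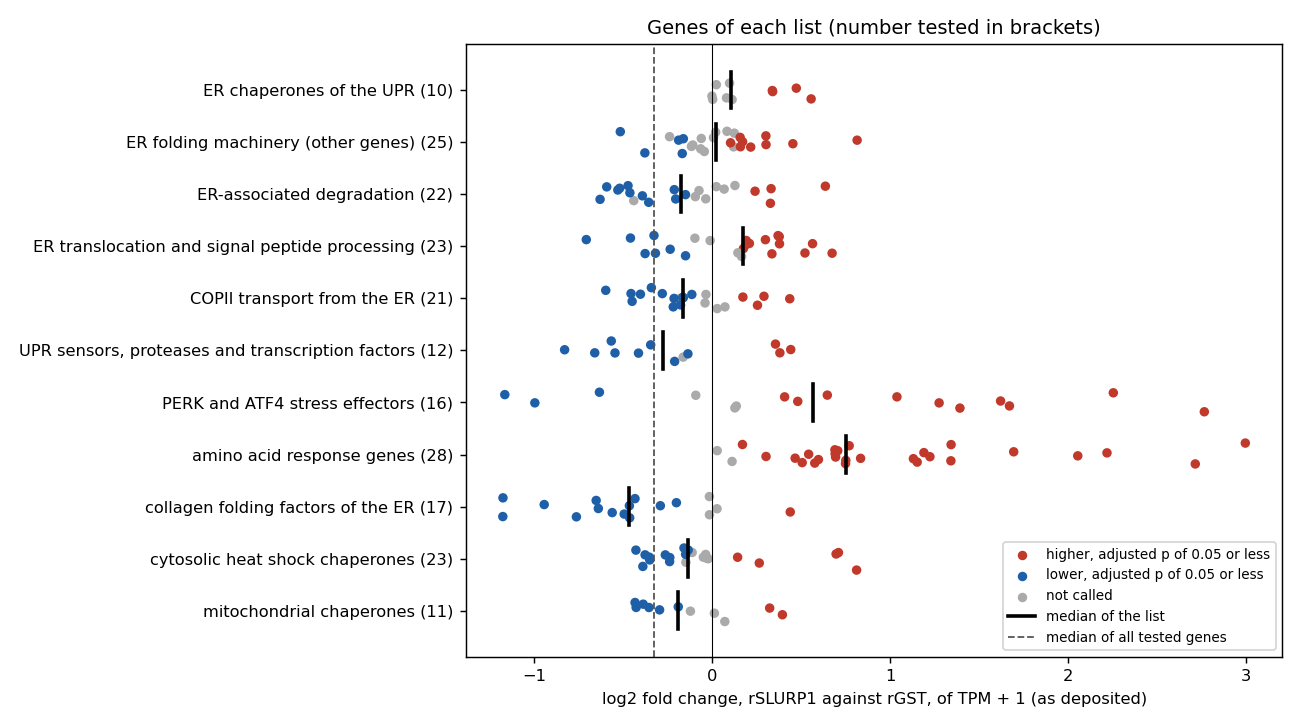
Log2 fold change of TPM + 1 as deposited for every tested gene of each list, coloured by whether it was called, with a black bar at the median of the list and a dashed line at the median of all tested genes (-0.33). The ER chaperones cluster between -0.00089 and 0.56, while the ATF4 effectors and amino acid response genes extend to 2.76 and 2.99.

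Across the 6 libraries, the genes outside the 10 whose log2(TPM + 1) most resembled Hspa5 were Cdyl (Pearson r = 0.991), Arhgap27 (0.985) and Ndufa7 (0.980). The libraries fall into 2 treatments and the best of all tested genes were picked, so these values describe likeness over 6 points and nothing more.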

How the data were processed

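RNAseq libraries of D2A1 spheroids in Matrigel, 3 with rSLURP1 and 3 with rGST, were grouped by their titles. According to the submitters' processing notes, the authors used bcl2fastq 2.20, Cutadapt 1.18, STAR 2.5.2b on mm10 and RSEM 1.3.3, and they deposited gene-level TPM, in which each library has its own column. The study's methods name GENCODE M12 and other versions of Cutadapt and RSEM, and they describe Smart-seq2 libraries, whereas the labels name a TruSeq mRNA kit. Depth is unknown. Coordinates and transcript lengths came from GENCODE M21, on the same build (GRCm38), and promoters from RefSeq (GRCm38.p6).

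Each gene was tested with limma 3.58.1 in R 4.3.3 on log2(TPM + 1), with trend in eBayes and no block. TPM are not counts, so no count model was fitted. Single values were tested with exact permutation in scipy 1.17.1. The scripts were tested on simulated data. The genes and lists were chosen with earlier results of these data known. All 10 ER genes are described. From each list of related genes, a set of anchor genes and the called genes with the largest increase and decrease relative to the median of all genes are named. Alternatives were a pseudocount of 0.1, other filters, quantile normalization, median-ratio scaling, a block for the replicate number, a correction for length and GC content (loess, span 0.3), eBayes with no trend, removal of the mitochondrially encoded genes, and the omission of 1 library at a time. Median-ratio scaling together with the block was added after the data were seen. Fold changes on log2(TPM + 1) understate changes of low genes.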

Additional observations from a re-analysis of the deposited data

How the results depend on the processing

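Creld2, Dnajb9, Pdia6 and Sdf2l1 were called higher in all 18 fits, with log2 fold changes of 0.52 to 0.91, 0.44 to 0.82, 0.32 to 0.69 and 0.29 to 0.69. The number of the 10 ER genes called higher was 4 as deposited, 7 with quantile normalization, 10 with median-ratio scaling, 10 with the length/GC correction, 6 without mitochondrial genes and 4 to 5 when 1 library was left out. With the replicate number as a block it was 4 as deposited, 10 with median-ratio scaling and 10 with the length/GC correction. None was called lower in these limma fits. Over all tested genes, 1065 were higher and 7200 lower as deposited. These numbers became 3111 and 2905 with quantile normalization, 3198 and 3094 with median-ratio scaling, 3313 and 2701 with the length/GC correction, 3089 and 2480 with it and the block together, and 3017 and 2854 with median-ratio scaling and the block. The block alone gave 7962 called genes in place of 8265. Deviations of same-numbered libraries correlated at -0.056, -0.034 and -0.061 across genes, and no number correlated best with itself. The labels do not say what a shared number means. Such correlations cannot show whether same-numbered libraries shared a culture or batch, since sharing need not leave a correlation across all genes.

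With Hsp90b1 as the reference in place of Hspa5, the differences in ratio were 0.56 for Creld2, 0.49 for Dnajb9, 0.34 for Pdia6, 0.34 for Sdf2l1, 0.10 for Xbp1, 0.083 for Herpud1, 0.025 for Calr and 0.0043 for Pdia4, all shifted by the change of Hsp90b1 against Hspa5. Leaving out 1 library gave ratios to Hspa5 of 0.38 to 0.50 for Creld2, 0.36 to 0.39 for Dnajb9, 0.20 to 0.26 for Pdia6, 0.20 to 0.26 for Sdf2l1, -0.13 to -0.083 for Pdia4, -0.12 to -0.057 for Calr and -0.15 to -0.080 for Hsp90b1. The ratios of Herpud1 (-0.071 to 0.023, positive without rGST replicate 1) and Xbp1 (-0.048 to 0.042, positive without rGST replicate 1 or rSLURP1 replicate 2) changed sign.

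Among the ER genes, changes of sign were seen only in genes not called as deposited. With quantile normalization Hspa5 had -0.035, Calr -0.048 and Hsp90b1 0.064. Hsp90b1 also had 0.35 with median-ratio scaling (with or without the block), 0.36 with the length/GC correction (with or without the block), 0.026 without mitochondrial genes and -0.017 to 0.030 when 1 library was left out (positive without rGST replicate 2, rSLURP1 replicate 1 or rSLURP1 replicate 3, at 0.030, 0.013 and 0.0014). Pdia4 had -0.0082 and -0.020 without rGST replicate 1 and without rSLURP1 replicate 2, in a range reaching 0.015. Of 170 values of the 10 genes under alternatives, 129 stayed on their side of 0 and of the threshold, 28 passed the threshold newly with the same sign and 13 changed sign. Of the 13, 4 values of Hsp90b1 also passed it newly (median-ratio scaling and the length/GC correction, each with or without the block), which makes 32 in all.

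Of the other named genes, sign changes with median-ratio scaling, with or without the block, gave 0.12 for Eif2ak3, 0.16 for Hspd1, 0.19 for P4hb, 0.31 for Sel1l and 0.34 for Serpinh1. With the length/GC correction, with or without the block, they gave 0.25, 0.16, 0.22, 0.42 and 0.32 in the same order. With quantile normalization, Eif2ak3 had 0.19, Sel1l 0.29, Serpinh1 0.049 and Hspa8 -0.12, and Serpinh1 had 0.012 without mitochondrial genes. Leaving out 1 library gave a range of -0.014 to 0.075 for Edem1 (-0.014 without rGST replicate 1, -0.012 without rSLURP1 replicate 1), -0.0050 to 0.019 for Pdia3 and -0.065 to 0.00033 for Sel1l. The cause of these changes was not tested, but median-ratio scaling by its construction moved the median of all genes from -0.33 to -0.0012. TPM hold no depth, so counting error in the lower genes is unknown.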

Other observations

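Chaperones of other compartments were counted beside those of the ER. Over all tested genes, 8.66% were called higher and 58.5% lower as deposited, and 26.0% and 25.2% after median-ratio scaling. Of 23 tested cytosolic heat shock chaperones and cofactors, 5 rose and 11 fell as deposited in limma (median log2 fold change -0.13), with 16 higher and 0 lower after median-ratio scaling in limma (median 0.22). Hspb1, a small heat shock protein gene, rose from 41.2 ± 1.82 to 73.1 ± 5.56 TPM (SD, n = 3 each). Hspa8, the constitutive HSC70 gene, rose by 0.27 (adjusted p = 4.31e-04 in limma), whereas with quantile normalization it was lower, at -0.12. Dnaja2 was lower by 0.43 as deposited and had -0.075 after median-ratio scaling (adjusted p = 0.292 in limma). Hspa1a, an HSP70 gene induced by heat shock, was at 0.10 TPM or less in every library. Its near-identical copy Hspa1b, named after its values were seen, rose from 8.56 ± 0.715 to 14.5 ± 1.54 TPM (SD, n = 3 each; log2 fold change 0.70, adjusted p = 6.24e-04 in limma, and 1.02 after median-ratio scaling). Reads of these copies can be assigned to either, so the split between them is uncertain.

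Of 11 mitochondrial chaperones and proteases, 2 rose and 6 fell as deposited (median -0.19), where 8.66% and 58.5% of all tested genes did. After median-ratio scaling 6 were higher and 0 lower in limma (median 0.16), where 26.0% and 25.2% of all tested genes were. Hspa9, the mitochondrial HSP70 gene, rose by 0.39 (adjusted p = 2.26e-04 in limma), and Hspd1, the HSP60 gene, was lower as deposited (-0.19) and higher after median-ratio scaling (0.16). Hscb, a J-domain gene of iron-sulfur cluster assembly, had the largest decrease (-0.43, with -0.089 and adjusted p = 0.440 in limma after scaling). Of 17 tested folding factors for collagen in the ER, 1 rose and 13 fell as deposited (median -0.46), and 5 were higher and 8 lower after median-ratio scaling (median -0.15). P3h3, a collagen prolyl hydroxylase family gene, fell from 89.3 ± 3.23 to 39.0 ± 1.99 TPM (SD, n = 3 each), and Tmem38b, an ER cation channel gene, rose by 0.44. Serpinh1, which encodes the collagen chaperone HSP47, had -0.015 (adjusted p = 0.712 in limma) as deposited and 0.34 after median-ratio scaling.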
